A study of Homo sapiens with 8 samples.

Results

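The mitochondrial ribosomal protein genes are nuclear genes for the protein part of the ribosome inside mitochondria. They were taken as all protein-coding genes whose symbol is MRPL or MRPS followed by a number and, for some, a letter. This rule, which uses no measured value, found 78 of the 60668 genes in the files, of which 51 code for proteins of the large subunit and 26 for proteins of the small subunit. MRPS36, the remaining gene, keeps its ribosomal name although its product is now known as a subunit of the 2-oxoglutarate dehydrogenase complex. The products of MRPS18A and MRPS30 sit in the large subunit despite their names. All 78 members passed the filter on low counts, which kept 15222 genes.

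The RNA came from D283-OMO cells, a line made from D283 MED, an established MYC-driven medulloblastoma line, by lentiviral infection with a doxycycline-inducible FLAG-tagged OMOMYC transgene and selection of a hygromycin-resistant population. OMOMYC is a small protein derived from MYC that pairs with MYC and its partner MAX and interferes with MYC function. The OMO group holds 4 untreated replicates, and the OMO+DOX group holds 4 replicates given 0.25 µg/mL doxycycline (DOX) for 72 h. All 8 libraries carry the transgene. No DOX-treated cells without it were analysed here, so an effect of DOX, an antibiotic that can act on mitochondrial ribosomes, cannot be told apart from an effect of OMOMYC.

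Mitochondrial ribosomes translate the few mRNAs of mitochondrial DNA, which code for core subunits of the respiratory chain and of ATP synthase. Each ribosome joins rRNAs made inside the organelle to proteins that are made in the cytosol and imported. Part of these proteins have counterparts in bacterial ribosomes, and the rest are specific to mitochondria. Mitochondrial translation is commonly linked to the high metabolic demand of MYC-driven tumours, and many ribosome genes are known MYC targets.

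RSEM's expected counts, as deposited, summed to between 38390696 and 54020506 per library. Levels are given as CPM, the counts in a library over its TMM-scaled size, and changes as log2FC of OMO+DOX over OMO with the SE and the adjusted p of edgeR's quasi-likelihood test. The photoreceptor-programme genes of the line's tumour group were present in OMO cells, with OTX2 at 1048.5 ± 17.4 CPM and CRX at 126.2 ± 6.23 CPM (SD, n = 4). Both fell with DOX (log2FC −1.04 and −2.59). Of 7 marker genes of that tumour group, 5 were lower with DOX. The other 2, EYS (log2FC 0.23, adjusted p = 0.046) and MYC (0.26, adjusted p = 0.00237), were higher. Of 5 marker genes of the WNT and SHH tumour groups 1 passed the filter, of 5 fibroblast genes only COL1A1 did, and of 4 blood genes none did, with HBB at 0. The blood genes summed to 0.142 to 0.252 CPM in OMO and 0.352 to 0.626 CPM in OMO+DOX, and the fibroblast genes to 22.3 to 23.8 and 21.2 to 25.2 CPM. Replicate 3 of OMO had the highest summed level of both the mitochondrial and the cytosolic ribosomal protein genes, and results are given without it where that changes them.

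The members were expressed at moderate levels. Between 331 and 12967 counts per library stood behind each of them, with a median of 1793. Mean levels in OMO ran from 7.72 to 238.1 CPM, with a median of 39.2 CPM. Per kilobase of the principal transcript, which makes genes of different length comparable, the highest level was that of MRPL37, at 160.5 ± 12.0 CPM per kb (SD, n = 4). MRPL12 followed at 92.5 ± 12.2 CPM per kb and MRPS21 at 86.3 ± 8.61 CPM per kb, and these 2 neighbours in the order did not differ beyond their spread. The lowest were MRPS33 at 3.40 ± 0.177, MRPS17 at 4.18 ± 0.408 and MRPL17 at 5.66 ± 0.56 CPM per kb. A long annotated principal transcript lowers this value, as for MRPL42 with 15582 nt and MRPS33 with 4241 nt. Without length scaling MRPS33 stood at 14.4 CPM in OMO, above MRPL17 at 11.1 and MRPS17 at 7.72 CPM. The median coefficient of variation was 8.97% among the OMO libraries and 4.48% among the OMO+DOX libraries.

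With DOX, more members were downregulated than upregulated, and most changes were small. At an adjusted p below 0.05, 42 members (53.8%) were lower, against 38.1% of all genes tested, and 13 (16.7%) were higher, against 38.5% of all genes tested. The other 23 were not called. The median log2FC of the members was −0.21, with quartiles of −0.46 and 0.07, and the median of all genes tested was 0.01. In 39 members every OMO+DOX library lay below every OMO library, against 35.4% of all genes, and in 9 every one lay above, against 36.3%. Below 0.001 and beyond an absolute log2FC of 1, MRPL37 and MRPL30 fell (9.74% of all genes did) and 0 members rose (11.0% of all genes did), and beyond 2 no member was called in either direction (2.75% and 4.38% of all genes). In bulk RNA, fewer cells of a kind and less RNA per cell cannot be told apart.

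Genes of similar level gave the same background. The window was 17.3 to 85.8 CPM as the mean of all 8 libraries, the 10th to 90th percentile of the members. Among the 5920 protein-coding genes in it, 38.1% were lower, 40.2% were higher and the median log2FC was 0.02. Scaling by library size alone moved the median of all genes to 0.14 and the split of the called members to 34 lower and 26 higher, from 76.4% lower to 56.7% lower. The members' median then stood at −0.08, since this scaling moves all genes by about the same amount. Without OMO replicate 3, 41 members were lower and 18 higher, with a median of −0.16.

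**Figure D1:**
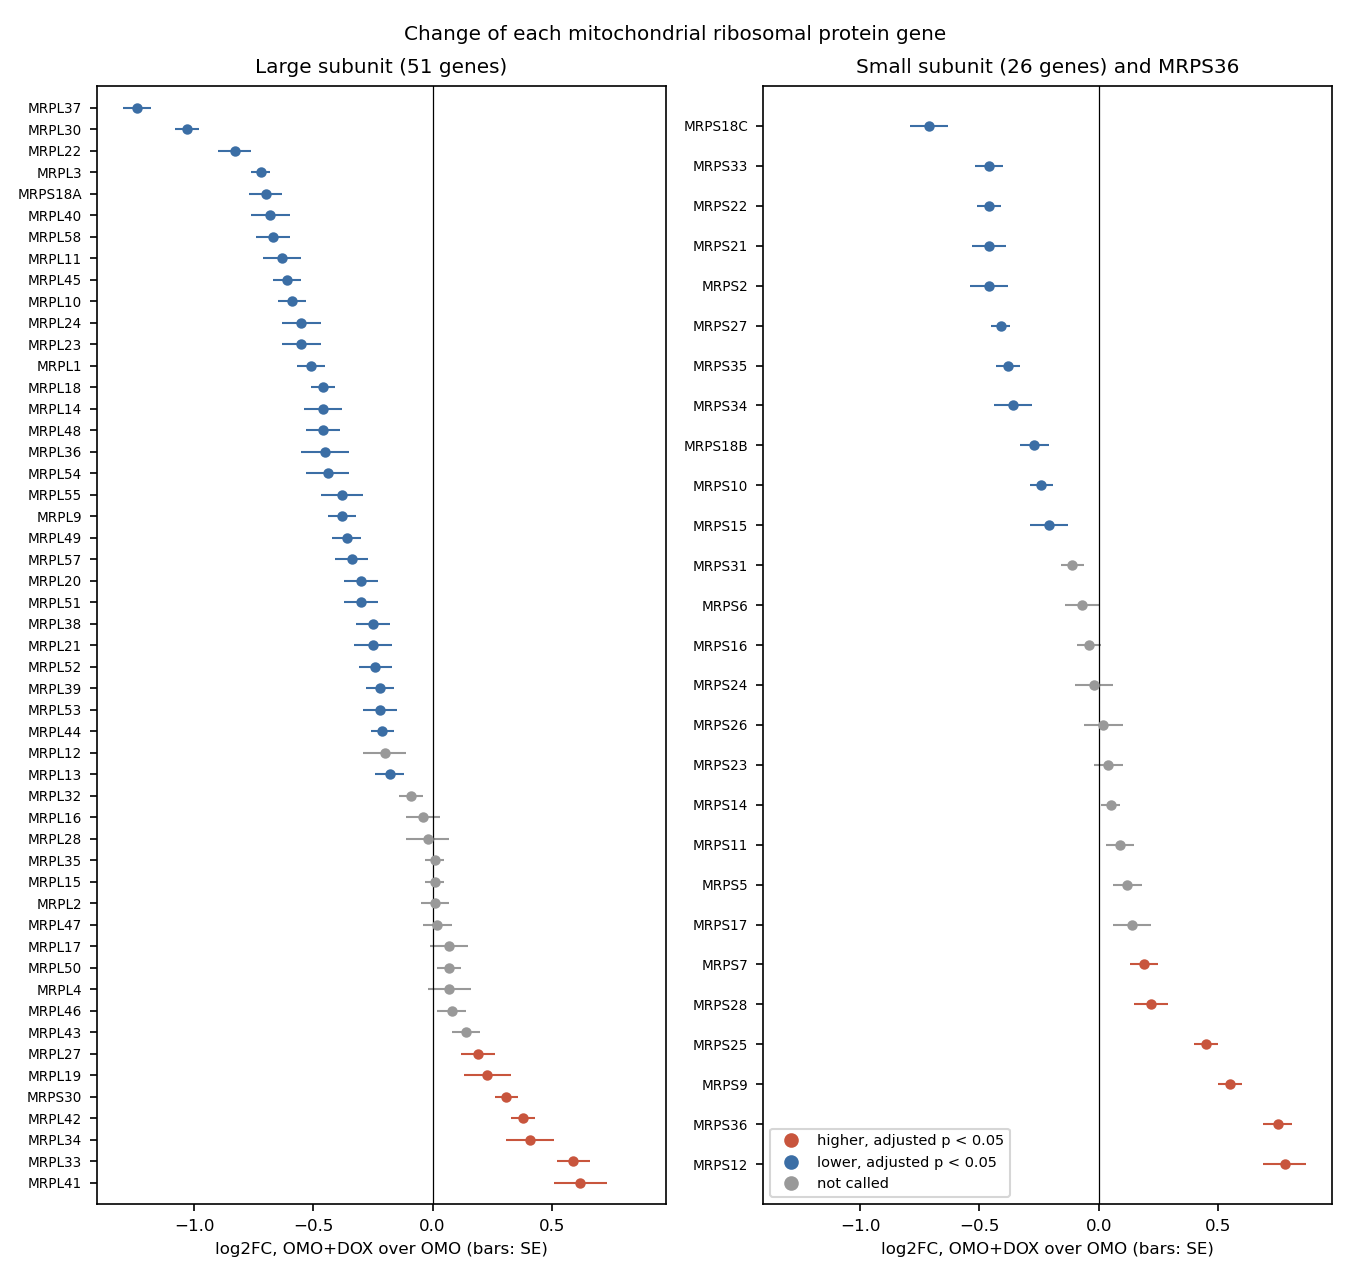
Log2FC of OMO+DOX over OMO (x axis) for each of the 78 members, large subunit at left and small subunit with MRPS36 at right, ordered by value. Points are fitted values, bars are 1 SE, and colours give the call at an adjusted p below 0.05. Values run from −1.24 for MRPL37 to 0.78 for MRPS12.

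A larger share of the large than of the small subunit genes was lower, a difference that was not tested. Of the 51 large subunit genes, 31 were lower (60.8%) and 7 higher (13.7%), with a median log2FC of −0.25. Of the 26 small subunit genes, 11 were lower (42.3%), near the 38.1% of all genes tested, and 5 higher (19.2%), against 38.5%. Their median of −0.06 turned to 0.07 with library size scaling. The summed level of the large subunit genes was 2361, 2495, 2781 and 2455 CPM in OMO replicates 1 to 4 and 1974, 1997, 2060 and 2090 CPM in OMO+DOX replicates 1 to 4, so that the groups did not overlap. The mean sum was 19.5% lower with DOX. For the small subunit the sums were 1304, 1345, 1509 and 1349 CPM in OMO and 1265, 1268, 1323 and 1331 CPM in OMO+DOX, where the groups overlapped.

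The ratio of the large to the small subunit sum is not touched by library size. It was 1.81, 1.85, 1.84 and 1.82 in the OMO libraries and 1.56, 1.57, 1.56 and 1.57 in the OMO+DOX libraries. OMO replicate 3, the highest library in both sums, was not apart from the others in this ratio. The large subunit sum includes MRPL37, whose own mean fell from 238.1 to 100.7 CPM. Over all 78 members the sum was 3911 ± 272.0 CPM in OMO and 3346 ± 88.7 CPM in OMO+DOX (SD, n = 4), 14.4% lower.

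**Figure D2:**
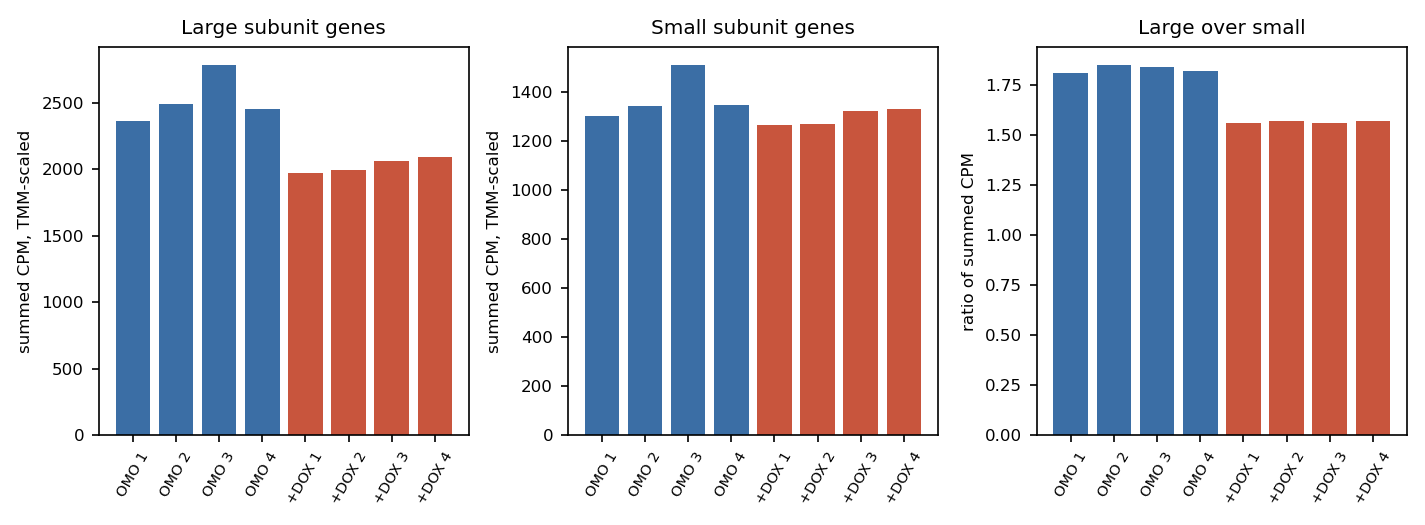
Summed TMM-scaled CPM of the 51 large subunit genes (left) and the 26 small subunit genes (middle), and their ratio (right), in each library, with OMO in blue and OMO+DOX in red. The ratio lies between 1.81 and 1.85 in OMO and between 1.56 and 1.57 in OMO+DOX.

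The members were also counted by the family names of their proteins. Names beginning with u or b mark a bacterial counterpart, and the others were counted as mitochondria-specific. This naming put MRPS18A and MRPS18B among the specific genes and MRPS18C among those with a counterpart, although all are related to the same bacterial protein. Of 46 genes whose products are named as having a bacterial counterpart, 21 were lower (45.7%) and 8 higher (17.4%). Among all genes tested, 38.1% were lower and 38.5% higher. The median log2FC of the 46 was −0.08 and became 0.05 with library size scaling. Of 31 genes for proteins named as mitochondria-specific, 21 were lower (67.7%) and 4 higher (12.9%), with a median of −0.27. Within the small subunit the medians were 0.02 for 16 genes with a counterpart and −0.31 for 10 specific genes, and within the large subunit −0.22 for 30 and −0.25 for 21.

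MRPL37 (ENSG00000116221.15), a mitochondria-specific protein of the large subunit, spans 54184041 to 54225464 on chromosome 1 (GRCh38, plus strand). It gave 222.7, 235.6, 263.6 and 230.4 CPM in OMO and 99.5, 97.6, 99.6 and 106.2 CPM in OMO+DOX. Every treated library lay below every untreated library, by far more than the spread within either group. The log2FC was −1.24 (SE 0.06, adjusted p = 3.03e-09), and the exact two-sided permutation test of the 8 levels gave p = 0.0286, the smallest that 4 against 4 can reach. Exons of SSBP3 on the other strand share 33 bases with those of MRPL37, and SSBP3 fell from 514.8 to 113.9 CPM. CYB5RL, also on the other strand, shares 140 bases and fell from 36.9 to 26.5 CPM (log2FC −0.48). Whether counting used the strand is not stated, and the part of such reads in the result was not tested.

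MRPL30 (ENSG00000185414.20; chromosome 2, 99181079 to 99197626, plus strand) codes for a large subunit protein with a bacterial counterpart. Its 4 OMO libraries stood close together, at 107.0, 104.9, 107.8 and 105.6 CPM, and the OMO+DOX libraries at 51.4, 55.6, 50.5 and 50.3 CPM. The log2FC was −1.03 (SE 0.05, adjusted p = 1.76e-09). Both groups were tight and far apart, and OMO replicate 3 was not apart here. MRPL30 shares 564 exon bases on the same strand with AC079447.1 (0.259 CPM in OMO, 0.281 in OMO+DOX). With AC092587.1 (0.0853 and 0.0739 CPM) it shares 380. RSEM divided reads for MRPL30 in all 8 libraries, and the part of such reads in the result was not tested.

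MRPL22, whose product lines the tunnel through which the new protein leaves the ribosome, followed with 19.4, 20.8, 23.9 and 21.2 CPM in OMO and 11.4, 12.8, 11.6 and 12.4 CPM in OMO+DOX (log2FC −0.83, SE 0.07, adjusted p = 6.23e-07). MRPL3, a counterpart of a bacterial protein near the site of peptide bond formation, gave 90.1, 94.3, 93.1 and 89.8 CPM and then 55.2, 56.6, 54.7 and 56.3 CPM (log2FC −0.72, SE 0.04, adjusted p = 1.41e-08). Neither gene's groups overlapped, and neither gene shares exon bases with another gene in the annotation.

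**Figure D3:**
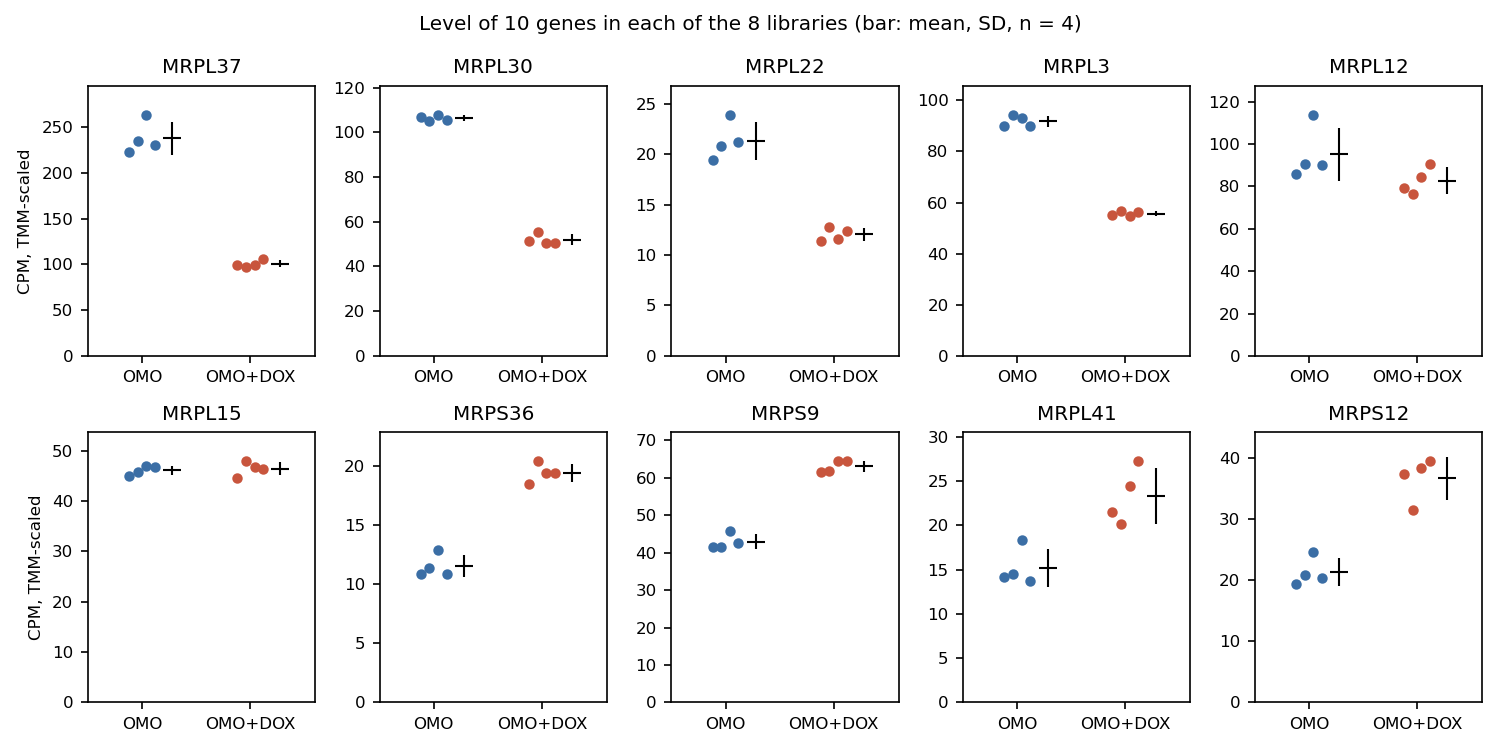
TMM-scaled CPM (y axis, from 0) of 10 members in each library, OMO in blue and OMO+DOX in red, replicates 1 to 4 from left to right, with the mean and SD (n = 4) as a cross beside the points. The groups do not overlap for MRPL37, MRPL30, MRPL22, MRPL3, MRPS36, MRPS9, MRPL41 and MRPS12, and they overlap for MRPL12 and MRPL15.

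The genes of functional sites of the large subunit were mostly lower. The stalk, which recruits translation factors, has 3 members. MRPL10, its base, gave 102.8 ± 6.12 CPM in OMO and 68.3 ± 3.69 CPM in OMO+DOX (log2FC −0.59, adjusted p = 1.62e-06). MRPL11, which joins the stalk to the rRNA, gave 38.0 ± 3.87 and 24.4 ± 2.11 CPM (log2FC −0.63, adjusted p = 1.94e-05). MRPL12, the repeated protein at the tip, was not called: 85.9, 90.5, 113.7 and 90.2 CPM in OMO overlapped with 79.2, 76.3, 84.6 and 90.7 CPM in OMO+DOX (log2FC −0.20, adjusted p = 0.0543, exact permutation p = 0.114). Over the alternatives its log2FC ran from −0.26 to −0.07, the latter with library size scaling, and it was −0.11 without OMO replicate 3. It was called lower with DESeq2's Wald test (−0.20), with no filter (−0.23), without OMO replicate 1 (−0.26) and without OMO+DOX replicate 4 (−0.25).

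Of 6 genes at the exit tunnel, 5 were lower (83.3%, beside 38.1% of all genes tested) and 0 higher, with a median of −0.55. Beside MRPL22, these were MRPL45, linked to the attachment of the ribosome to the inner membrane (144.4 ± 10.3 to 95.0 ± 2.88 CPM, log2FC −0.61), MRPL24 (46.2 ± 5.1 to 31.5 ± 2.11 CPM, −0.55), MRPL23 (39.2 ± 4.91 to 26.7 ± 1.37 CPM, −0.55) and MRPL44 (log2FC −0.21). MRPL44 lost its call with library size scaling. MRPL47, the remaining gene, stood at 32.9 CPM in OMO and 33.4 CPM in OMO+DOX and was not called (log2FC 0.02).

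The central protuberance is the part of the large subunit that faces the tRNAs and the small subunit. Of its 8 genes, 6 were lower (75%) and 1 higher (12.5%), with a median of −0.35. Among all genes tested, 38.1% were lower and 38.5% higher. MRPL40 had the most negative log2FC of the 8, at −0.68, with 29.3 ± 3.5 CPM in OMO and 18.3 ± 1.3 CPM in OMO+DOX. MRPL58, also known as ICT1, which releases peptides from stalled ribosomes, gave 42.6 ± 3.86 and 26.9 ± 1.22 CPM (log2FC −0.67, adjusted p = 2.25e-06). MRPL18 and MRPL48 had log2FC values of −0.46 each, MRPL38 of −0.25 and MRPL52 of −0.24, the last of these with overlapping groups. MRPL38 and MRPL52 lost their calls with library size scaling. MRPL27 was higher by 0.19 (adjusted p = 0.0323), with overlapping groups. That call was lost with no filter (0.16) and without OMO replicate 1, 2 or 4 or OMO+DOX replicate 3 or 4, where the log2FC was 0.13 to 0.20. MRPL46 was not called (log2FC 0.08), except without OMO replicate 3 (0.14) and with library size scaling (0.21).

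The 3 genes MRPS18A, MRPS18B and MRPS18C code for related proteins that share a single bacterial counterpart and occupy different places in the ribosome, with the product of MRPS18A in the large subunit. Each was lower in every OMO+DOX library than in every OMO library. MRPS18A gave 64.5 ± 6.21 and 39.8 ± 1.74 CPM (log2FC −0.70, SE 0.07), MRPS18B 76.5 ± 6.62 and 63.5 ± 1.3 CPM (log2FC −0.27, SE 0.06), and MRPS18C 31.5 ± 3.86 and 19.3 ± 0.764 CPM (log2FC −0.71, SE 0.08). Exons of ABRAXAS1 share 1956 bases with MRPS18C on the other strand, and ABRAXAS1 was higher with DOX (log2FC 0.29).

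In the small subunit the head, which holds the mRNA and the tRNAs in place, had members in both directions. Of its 8 genes, 3 were lower (37.5%), 2 higher (25%) and 3 not called, beside 38.1% lower and 38.5% higher among all genes tested. MRPS33 (log2FC −0.46), MRPS35 (−0.38) and MRPS10 (−0.24) fell, with adjusted p between 2.86e-05 and 0.000531. MRPS9 rose, from 41.6, 41.6, 45.9 and 42.6 CPM to 61.6, 61.9, 64.4 and 64.4 CPM (log2FC 0.55, SE 0.05, adjusted p = 5.38e-07). MRPS7 was called higher by 0.19 with overlapping groups, and lost that call without OMO replicate 1, 2 or 4 or OMO+DOX replicate 3 or 4, at 0.13 to 0.17. MRPS14, MRPS24 and MRPS31 had log2FC values of 0.05, −0.02 and −0.11 and were not called. Without OMO replicate 1 or OMO+DOX replicate 3, MRPS31 was called lower at −0.14, and with library size scaling MRPS14 was called higher at 0.18. MRPS31 has a pseudogene, MRPS31P5, with 46.1% as many counts, although the counts of MRPS31 itself were whole in all 8 libraries. Counts were found for 29 pseudogenes of members, and all of them together held 0.355% to 0.66% of the members' counts.

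The largest rise was that of MRPS12 (ENSG00000128626.11; chromosome 19, 38930548 to 38933162, plus strand), whose product sits at the decoding site of the small subunit. It gave 19.4, 20.9, 24.6 and 20.3 CPM in OMO and 37.3, 31.5, 38.3 and 39.4 CPM in OMO+DOX. All treated libraries lay above all untreated libraries, and replicate 2 was the lowest treated one. The log2FC was 0.78 (SE 0.09, adjusted p = 5.27e-06), an increase of 71.9%. SARS2, the mitochondrial seryl-tRNA synthetase gene, lies on the other strand, shares 349 exon bases with MRPS12 and moved the other way, from 33.5 to 24.2 CPM (log2FC −0.47, adjusted p = 3.85e-05).

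MRPS36, the gene outside the ribosome, gave 10.9, 11.4, 12.9 and 10.9 CPM in OMO and 18.5, 20.4, 19.4 and 19.4 CPM in OMO+DOX (log2FC 0.75, SE 0.06, adjusted p = 6.69e-07). MRPL41, a mitochondria-specific large subunit protein, gave 14.1, 14.5, 18.3 and 13.7 CPM and 21.5, 20.1, 24.4 and 27.2 CPM (log2FC 0.62, SE 0.11, adjusted p = 0.000284). Both were higher in all 4 treated libraries than in any untreated library, and neither shares exon bases with another gene.

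MRPL33 (log2FC 0.59), MRPS25 (0.45), MRPL34 (0.41) and MRPL42 (0.38) rose as well without overlap between groups. MRPL33 went from 21.8 ± 2.15 to 32.8 ± 1.17 CPM and shares 324 exon bases on the same strand with BABAM2, which stood at 22.8 and 23.0 CPM. MRPS25 went from 62.3 ± 3.61 to 85.2 ± 1.45 CPM, and NR2C2, with 1197 shared bases on the other strand, was higher too (log2FC 0.63). MRPL34 and MRPL42 code for large subunit proteins and had SEs of 0.10 and 0.05.

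Members were also counted by whether they share exon bases with another gene, and the difference between these counts was not tested. Of the 41 members with such a neighbour on either strand, 17 were lower, a share near the 38.1% of all genes tested. Another 9 of the 41 were higher, against 38.5% of all genes tested. Of the 37 without, 25 were lower and 4 higher, namely MRPL27, MRPL41, MRPS30 and MRPS36. RSEM divided reads for 40 members, seen as decimal counts in at least 1 library. Among the 38 with whole counts throughout, 24 were lower and 4 higher, with a median log2FC of −0.26.

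The members nearest to a log2FC of 0 were MRPL2, MRPL15 and MRPL35, each at 0.01 with an SE of 0.04 to 0.06. MRPL35 gave 41.8, 42.1, 43.0 and 42.5 CPM in OMO and 43.3, 43.2, 44.0 and 40.4 CPM in OMO+DOX. These 3 were at 0.14 and called higher with library size scaling, which had moved the median of all genes to the same value. Across the 78 members, log2FC had a Spearman rho of −0.23 with the log level in OMO, beside −0.27 across all genes tested, and of 0.02 with transcript length. The OMO level is also the denominator of log2FC, so scatter in it alone can make the correlations with level negative. All of these correlations are across genes of the same 8 libraries, which are not independent.

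The E-box CACGTG, which reads the same on both strands, is the sequence that MYC and MAX bind best. It was searched in RefSeq's promoter windows on GRCh38.p14, from 250 bases before to 50 after the start site, which matched 69 of the 78 members by symbol. The motif was present in 9 of them (13.0%), against 12.7% of the 10656 tested genes with a window and 8.77% of all 27305 genes with one. The 9 were MRPL14, MRPL22, MRPL36, MRPL37, MRPL45, MRPL49, MRPS18C, MRPS2 and MRPS33. All 9 were lower with DOX, with log2FC from −1.24 to −0.36 and a median of −0.46, and 3 of them are among the largest falls described above. Of the 60 members without the motif, 29 were lower and 11 higher, with a median of −0.16. Over all tested genes the difference was slight, with 41.2% lower and 35.4% higher among the 1351 genes holding the motif, and 37.9% lower and 39.9% higher among the 9305 lacking it. A match is a description of the letters, and binding was not measured in these libraries.

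The 30 bases around the E-box are shown for the 7 members where they lie before the start site. They are read 5′ to 3′ on the strand of the gene, with the E-box in capitals, and ordered by log2FC. In MRPL14 and MRPL49 the stretch ran past the window or the start site and is not shown.
MRPL37: tgcgcttcacctCACGTGaggattttccag
MRPL22: ttttcggaagccCACGTGctttcggccttt
MRPS18C: aatcataagcctCACGTGacctgccgcgta
MRPL45: cactcccgcgagCACGTGcgcgtcctcgct
MRPS2: cgacggccaggtCACGTGactggggagcga
MRPS33: gctcgggcggttCACGTGcatcacacaaat
MRPL36: acgtgggcacgcCACGTGaccccccccccc

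The stretch of MRPL37 lies at chr1:54199985-54200014 on the plus strand, and its E-box ends 165 bases before RefSeq's start site. That of MRPL22 lies at chr5:154940885-154940914, plus strand, 171 bases before the start. That of MRPS18C lies at chr4:83455867-83455896, plus strand, 174 bases before it. The E-boxes of MRPS2 (chr9:135499897-135499926, plus strand) and MRPL36 (chr5:1799876-1799905, minus strand) are the closest to the start, at 51 bases each. MRPL45 (chr17:38297023-38297052, plus strand) and MRPS33 (chr7:141014763-141014792, minus strand) lie between, at 128 and 96 bases. The stretches of MRPL37, MRPL45, MRPL36 and MRPS33 lie inside the GENCODE 29 spans of these genes, so all distances hold for the RefSeq starts only.

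Motifs of 3 other factors linked to ribosome or mitochondrial genes were searched on both strands in the same windows. The YY1 motif AAGATGGC was in 21 members (30.4%), against 6.33% of tested genes. Of these 21, 12 were lower and 4 higher, with a median log2FC of −0.24, beside −0.22 for the members lacking it. Among all tested genes holding this motif, 38.5% were lower and 34.7% higher. The ETS motif CCGGAAGT, bound by GABP, was in 12 members (17.4%), against 9.66% of tested genes, with 9 lower and 1 higher. Among all tested genes holding the ETS motif, 39.1% were lower and 33.8% higher. The NRF1 motif CGCATGCG was in 3 members (4.35%), against 4.47% of tested genes. No member count here was tested against the background.

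Many members start head to head with another gene. In 28 members (35.9%) the principal start lay within 1000 bp of a start on the opposite strand, against 13.7% of protein-coding genes tested. For the 27 with both genes tested, the pair was lower together in 8 and higher together in 2, moved in opposite directions in 7, had only the member called in 3, only the neighbour in 4 and neither in 3. The pair MRPL46 and MRPS11, both members, is counted from each side. The neighbours' median log2FC was 0.0. Across the 27 pairs Spearman's rho of the 2 changes was 0.2, a description of pairs from the same libraries. The neighbours of MRPL14, MRPL32, MRPL49, MRPL51, MRPS7 and MRPS22 start downstream of the member's start and are read towards it. Such overlapping starts were counted as head to head.

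Single pairs show the range. MRPS12 and SARS2, which start 58 bp apart, had log2FC values of 0.78 and −0.47. MRPS18C at −0.71 stood beside HELQ at 0.54, and MRPL27 at 0.19, 6 bp from EME1, beside −0.95. MRPL57 at −0.34 and SKA3, a mitotic spindle gene, at −1.47 fell together, as did MRPL30 at −1.03 and MITD1 at −0.19. MRPL41 and PNPLA7 rose together, at 0.62 and 0.90. These pairs were chosen after their values were seen.

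**Figure D4:**
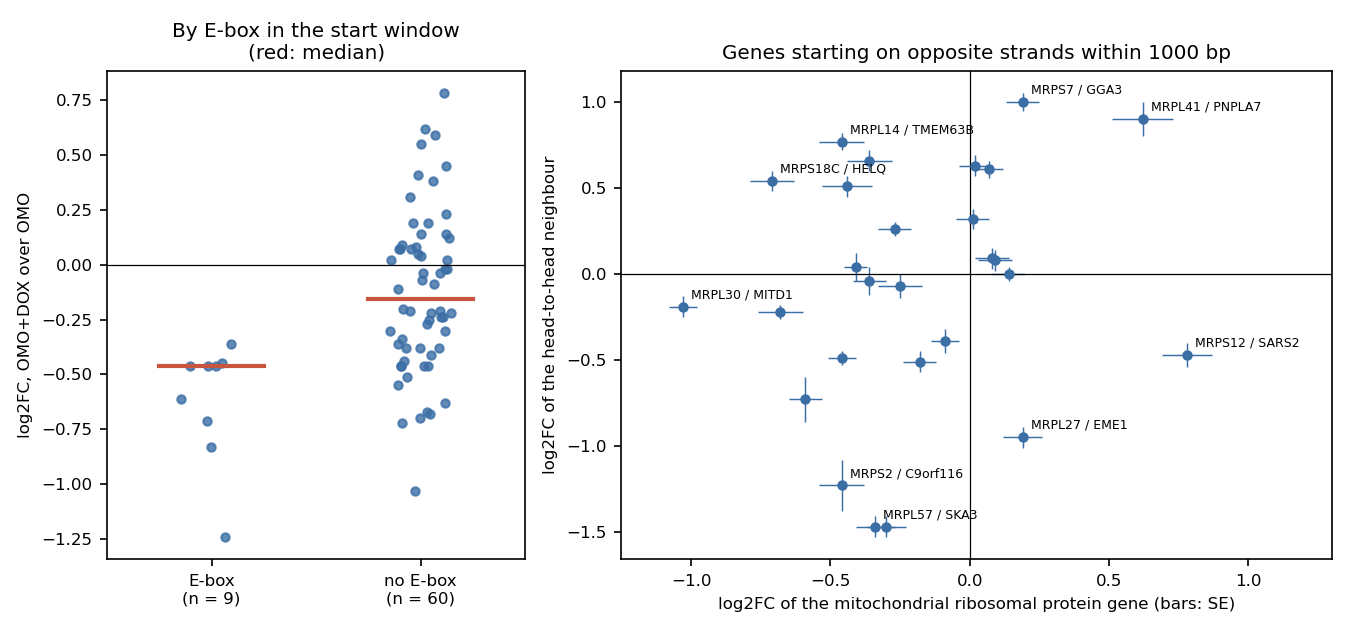
Left, log2FC of the 69 members with a promoter window, split by the E-box, with the median in red (−0.46 for 9 members with it, −0.16 for 60 without). Right, log2FC of 27 members (x axis) against that of the head-to-head neighbour (y axis), with 1 SE as bars. Pairs fall in all 4 quadrants.

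The other genes of the pathway were counted in the same way. Of 5 subunit proteins whose names the rule does not match, 3 were lower (60%) and 0 higher, beside 38.1% and 38.5% of all genes tested. DAP3, a GTP-binding protein of the small subunit, gave 180.0, 185.5, 201.8 and 181.9 CPM in OMO and 140.6, 143.7, 143.5 and 142.3 CPM in OMO+DOX (log2FC −0.39, adjusted p = 1.05e-05). GADD45GIP1, a large subunit protein, had a log2FC of −0.88 (SE 0.09) and AURKAIP1, in the small subunit, of −0.42 (SE 0.09). CHCHD1 and PTCD3 were not called.

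The 24 assembly and rRNA modification factors gave 9 lower (37.5%), close to the 38.1% of all genes tested, 5 higher (20.8%) and a median log2FC of −0.10, which became 0.03 with library size scaling. NOA1, a GTPase needed for the small subunit, fell from 67.8 ± 1.94 to 35.4 ± 1.41 CPM (log2FC −0.94), and RBFA, which matures the small subunit rRNA, fell from 36.1 ± 0.53 to 21.9 ± 0.37 CPM (log2FC −0.72). MPV17L2 and MTERF3, both linked to the large subunit, rose by 1.0 and 0.74. The 15 translation factors gave 5 lower (33.3%), 4 higher (26.7%) and a median of 0.07, so that their lower share did not exceed that of all genes. Among them GFM1, an elongation factor, rose by 0.53 and MTRF1L, a release factor, by 0.42, while MTIF2, an initiation factor, fell by 0.46 and MTRFR, a rescue factor, by 0.41 on the log2 scale.

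The rRNAs of the same ribosome rose. MT-RNR1, the rRNA of the small subunit, gave 347.7, 338.7, 457.6 and 328.5 CPM in OMO and 5736, 6077, 6220 and 5673 CPM in OMO+DOX (log2FC 4.01, SE 0.10, adjusted p = 2.25e-11). MT-RNR2, the rRNA of the large subunit, went from 4526 ± 245.9 to 15397 ± 382.3 CPM (log2FC 1.77, SE 0.05). The libraries were selected for polyA tails, so these levels count only rRNA captured that way, and whether the amount or the capture changed was not tested. Of 13 mitochondrial mRNAs, 5 were lower (38.5%) and 3 higher (23.1%), the former near the share of all genes. MT-CO1, a core subunit of complex IV, fell from 15673 ± 692.7 to 5868 ± 215.3 CPM (log2FC −1.42), and MT-CO3 fell with a log2FC of −0.62. MT-ND6 and MT-ND5, subunits of complex I, rose by 1.23 and 0.97.

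Of 9 regulators of mitochondrial biogenesis, 4 were lower (44.4%) and 3 higher (33.3%), beside 38.1% and 38.5% of all genes tested. PPARGC1B, a transcriptional coactivator of mitochondrial genes, rose from 17.2 ± 2.48 to 271.0 ± 17.6 CPM (log2FC 3.98, SE 0.10), and ESRRA, a nuclear receptor it works with, rose by 1.74. GABPB1 and NRF1, which belong to factors that activate mitochondrial ribosome and respiratory genes, were lower, at −0.32 and −0.29, while GABPA, the DNA-binding partner of GABPB1, rose by 0.38 (adjusted p = 0.00106). Of 20 genes of the ATF4 and mitochondrial stress responses, 13 were lower (65%) and 5 higher (25%), with a median of −0.47. Of all genes tested, 38.1% were lower and 38.5% higher. DDIT4 (log2FC −1.48) and ATF5 (−1.45) fell most, and FGF21 (2.43) and GDF15 (1.42), secreted stress factors, rose most.

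The cytosolic ribosomal protein genes were counted side by side. Of 88, 85 were tested, of which 59 (69.4%) were lower and 1 (1.18%), RPS27L, higher, with a median log2FC of −0.28. Among all genes tested, 38.1% were lower and 38.5% higher. RPL39L and RPLP0 had log2FC values of −0.93 and −0.68, and RPS27L of 1.63. The difference between the cytosolic and the mitochondrial list was not tested. CAD and NCL, known MYC targets, fell with log2FC values of −0.48 and −0.44, beside the 38.1% of all genes tested that were lower. Here too, an effect of DOX cannot be told apart from an effect of OMOMYC. MYC itself gave 939.0 ± 75.6 and 1123 ± 56.8 CPM with overlapping groups (log2FC 0.26, adjusted p = 0.00237), and reads from the transgene, which derives from MYC, cannot be separated from it.

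**Figure D5:**
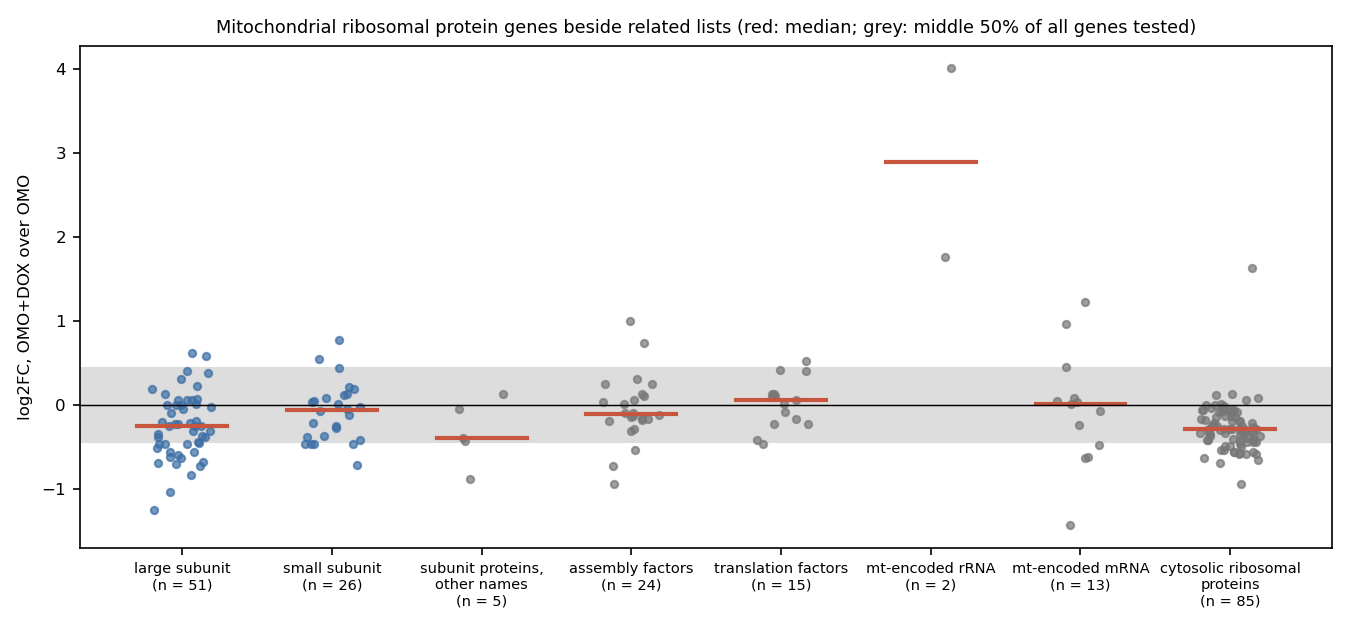
Log2FC of OMO+DOX over OMO (y axis) for the members by subunit (blue) and for related lists (grey), each point a gene, with the median in red and the quartiles of all genes tested as the edges of a grey band, from −0.43 to 0.44. Of the genes plotted, which leave out the biogenesis and stress lists, the 2 mitochondrial rRNAs have the highest values.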

How the data were processed

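Expected counts per gene, deposited by the authors for 8 libraries of polyA+ RNA, were made by trimming with Trim Galore, aligning with STAR to GENCODE 32 (GRCh38) and quantifying with RSEM, which divides reads that match several genes. They are not normalized, and whether counting used the strand is not given in the sources used here.

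Rounded counts of genes above 1 CPM in 4 or more of the 8 libraries were tested with edgeR 4.0.16 in R 4.3.3 (TMM, quasi-likelihood test, no covariates, Benjamini-Hochberg adjustment over 15222 genes). The SE is the absolute log2FC over the square root of F. Permutation tests were exact and two-sided. Names, positions and transcript lengths come from GENCODE 29 on GRCh38, and promoters from RefSeq. The fit was tested on simulated data. Figures and counts used Python 3.11.15.

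The members and lists were chosen with earlier results of these data known, and the motifs after the fit. Named members are the 8 largest rises and falls without overlap between groups, the 3 highest and 3 lowest per kilobase, the 3 nearest to 0 and the role lists. Other lists give the 2 largest changes in each direction. Genes beyond this rule, such as overlapping or head-to-head neighbours, the remaining E-box genes and lineage markers, were named for their position, motif or role.

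Alternatives were DESeq2's size factors, library size only, the Wald test of DESeq2 1.42.0, other filters, a replicate block and each replicate left out with the tested genes kept. The replicates are independent biological replicates per the study's methods.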

Additional observations from a re-analysis of the deposited data

Results flagged for a closer look

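All 78 members, their summed CPM and the ratio of the subunit sums were examined in each group of 4 libraries, and in 10 of these 160 groups a library stood apart from the other 3 by more than Dixon's critical value. In 9 of the 10 it was OMO replicate 3, always as the highest library. MRPL12 was at 113.7 CPM there, against 85.9 to 90.5 CPM in the other OMO replicates, and MRPL45 at 159.9 CPM (others 138.7 to 139.6). MRPS18B was at 86.3 CPM (others 72.1 to 74.5), MRPS35 at 68.9 CPM (others 62.0 to 63.1), MRPL4 at 48.9 CPM (others 38.4 to 40.0) and MRPS26 at 43.7 CPM (others 35.2 to 35.5). MRPL57 was at 37.5 CPM (others 29.6 to 30.7), MRPL21 at 30.3 CPM (others 23.5 to 24.3) and MRPL41 at 18.3 CPM (others 13.7 to 14.5). The remaining case was MRPL54 in OMO+DOX replicate 4, at 17.6 CPM (others 15.7 to 16.0). Chance alone flags about 8.0 of 160 such groups, but the genes share their libraries and the cases were not spread evenly over them. The cytosolic ribosomal protein genes summed to 136874 CPM in OMO replicate 3, against 108614 to 116686 CPM in the other OMO libraries.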

How the results depend on the processing

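No result changed direction past its threshold under the alternatives run. With library size only, the members' median log2FC was −0.08 and the log2 ratio of their summed CPM −0.10, 26 members were higher (15 large, 10 small subunit) and 1 was lower beyond a log2FC of 1. Higher counts were then 5 cytosolic ribosomal proteins, 1 subunit protein with another name, 9 translation factors, 10 assembly factors and 6 mitochondrial mRNAs, and lower counts 2 translation factors, 4 assembly factors and 2 biogenesis regulators. With no filter, 2 cytosolic ribosomal proteins were higher. Leaving out each replicate gave 40 to 44 members lower. It gave 10 to 18 members, 4 to 8 small subunit genes, 1 to 4 cytosolic ribosomal proteins and 0 to 1 subunit proteins with another name higher, and the upper value of each of these 4 counts came without OMO replicate 3. Among 44 named members, library size moved 8 past the threshold and lost 3.

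With the replicate number as a block, 14 members were higher and 43 lower, including all those called without it. Same-numbered libraries correlated at 0.157, 0.144, 0.241 and −0.176 in their deviations, and 1 of 4 OMO libraries correlated best with its own number, so the numbers were not taken as a pairing. Members had 331 or more counts per library, and SEs lay between 0.04 and 0.11.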
